A study of Mus musculus with 20 samples.

Results

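The translation initiation and elongation factors were examined in mouse heart RNA. They were taken by name: every autosomal protein-coding gene of the GENCODE vM21 annotation whose symbol begins with Eif or Eef followed by a number, leaving out the Eif2ak kinases, gave 61 genes of 55335 in the count table. For description, 6 were grouped under start codon selection (Eif1, Eif1a, Eif1b, Eif1ad, Eif5 and Eif5b). Of the others, 4 carry or replace the initiator tRNA carrier eIF2, 5 form eIF2B, 14 belong to eIF3, 12 to eIF4 and 4 repress eIF4E. A further 3 are eIF5A or eIF6, 6 were grouped under eEF1 by name, 2 are eEF2 and its kinase, and 5 methylate elongation factors. A filter on low counts left 56 for testing. The 5 that did not pass were Eif4e1b, an oocyte form of the cap-binding protein with no read in any library, Eef1akmt3 (0 to 2 reads per library), Eif4ebp3 (1 to 8), Eif3j2 (0 to 10) and Eef1akmt4 (2 to 12).

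The study asked how loss of OGFOD1 alters the heart's response to isoproterenol, a beta-adrenergic agonist whose chronic infusion makes the heart grow. OGFOD1 adds a hydroxyl group to a proline of Rps23, a ribosomal protein that lies near the decoding site. Hearts came from C57BL/6N mice aged 3 to 5 months on the NIH-31 diet. The 4 groups of 5 libraries each were OGFOD1-KO mice given isoproterenol, OGFOD1-KO mice given vehicle, WT mice given isoproterenol and WT mice given vehicle, each for 2 weeks by osmotic minipump. The vehicle was phosphate-buffered saline with sodium ascorbate, and the drug solution held the same with isoproterenol added. The sources used here do not give the isoproterenol dose, the sex of the mice or the deleted part of Ogfod1. The labels do not say that the 5 libraries of a group came from 5 mice, and every p below is therefore about the spread of libraries, which may be technical.

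Total counts ran from 14609808 to 43671055 per library, and the 61 factors took 0.8155% to 0.887% of the counts outside the mitochondrial genome. Ogfod1 measured 2.39 to 4.13 CPM (counts scaled to library size by TMM) in KO isoproterenol, 2.49 to 4.08 in KO vehicle, 18.7 to 21.8 in WT isoproterenol and 16.9 to 20.9 in WT vehicle libraries. All 20 libraries had the Y-linked Ddx3y at 43.3 to 56.9 CPM and Xist at 0.280 CPM or less. Cardiomyocyte markers were present in every library. A pair of libraries stood apart. WT vehicle replicate 2 had Eif3a at 124 CPM, where the other 4 WT vehicle libraries had 70.0 to 77.2, and Eif3b at 29.4, where they had 17.2 to 20.2. KO isoproterenol replicate 5 had the summed fibroblast markers at 1994 CPM, against 690 in the lowest library of its group and a group median of 812.

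Translation begins when the initiator tRNA, carried by eIF2 with GTP, joins eIF1, eIF1A, eIF3 and eIF5 on the small ribosomal subunit, and eIF4E, eIF4G and eIF4A bring this complex to the mRNA cap. eIF2B recharges eIF2 with GTP, and phosphorylation of the eIF2 alpha subunit blocks that exchange under stress. In elongation eEF1A delivers aminoacyl-tRNAs, the eEF1B complex recharges eEF1A, and eEF2 moves the ribosome along the mRNA. Heart muscle is known for expressing another eEF1A gene, Eef1a2, whose protein takes over from that of the widely expressed Eef1a1 in adult muscle and neurons.

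The eEF1A genes moved in opposite directions with isoproterenol, so the sequences of this pair are shown first. Both open reading frames begin alike, and the first 90 coding bases differ at 15 positions, printed here in capitals, from the longest open reading frames of the GENCODE vM21 transcripts.
Eef1a2: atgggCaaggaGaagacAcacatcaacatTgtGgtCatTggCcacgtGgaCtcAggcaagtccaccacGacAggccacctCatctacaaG
Eef1a1: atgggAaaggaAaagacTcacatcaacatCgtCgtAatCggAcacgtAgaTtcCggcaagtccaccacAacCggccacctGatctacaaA
Over the whole frames, of 1392 bases in Eef1a2 and 1389 in Eef1a1, 79.8% of bases were the same when aligned without gaps from the start codon. The longest run that both share had 23 bases (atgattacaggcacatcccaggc, coding bases 304 to 326), so that reads longer than that within the frames can differ between the genes. Other pairs of the family share runs of like length, 20 bases in Eif4a1 and Eif4a2, 25 in Eif1 and Eif1b, 19 in Eif4g1 and Eif4g3, and 14 in Eif5a and Eif5a2. Processed pseudogenes of several factors also exist, and the sources used here do not say how reads that fit more than 1 gene were counted, so levels of such genes carry that uncertainty.

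Promoters of the pair differ in base composition. The 250 bases before the RefSeq start site (GRCm38.p6) of Eef1a2 lie at chr2:181157016-181157265 on the minus strand with 54.0% G and C, and those of Eef1a1 at chr9:78481725-78481974 on the minus strand with 68.0%. Capitals mark GC boxes (GGGCGG on either strand).
Eef1a2: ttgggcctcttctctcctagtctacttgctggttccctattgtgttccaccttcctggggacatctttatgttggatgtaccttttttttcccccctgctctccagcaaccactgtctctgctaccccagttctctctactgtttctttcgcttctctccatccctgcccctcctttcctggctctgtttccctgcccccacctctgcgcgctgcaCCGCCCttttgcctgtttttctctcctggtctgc
Eef1a1: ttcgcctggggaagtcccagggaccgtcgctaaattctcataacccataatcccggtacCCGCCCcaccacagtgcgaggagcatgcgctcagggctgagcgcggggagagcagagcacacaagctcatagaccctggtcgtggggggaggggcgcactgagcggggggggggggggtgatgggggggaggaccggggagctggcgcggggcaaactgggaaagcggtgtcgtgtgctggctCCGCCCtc
On both strands, 5 motifs were searched in the promoters of the 45 factors that RefSeq's table matched, and of these Eef1a2 and Eef1a1 held GC boxes alone. For 40 of the 45, bases after the start site were found in a GENCODE vM21 transcript in the same orientation. The full cAMP response element (TGACGTCA) was in 0 of the 45, against 2.42% of the promoters of tested protein-coding genes and 1.55% of all 32851 promoters. Its shorter core TGACG, which the full element contains, was in 20 of 45 (44.4%), against 25.7% of the promoters of tested protein-coding genes and 17.8% of all. The E-box CACGTG was in 10 (22.2%, against 8.08% and 6.02%), GGGCGG in 32 (71.1%, against 56.9% and 32.7%) and TATAAA in 4 (8.89%, against 6.60% and 12.4%). These matches are descriptions of letters in a window and show no binding.

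Elongation factors dominated the family per length. Over all 20 libraries Eef2 averaged 182 CPM per kilobase of exon, Eef1a2 181 and Eef1a1 152, and these 3 genes together made up 53.1% ± 1.33 (SD, n = 5) of the summed CPM per kilobase of all factors in KO isoproterenol, 52.0% ± 1.44 in KO vehicle, 52.6% ± 1.09 in WT isoproterenol and 53.3% ± 0.935 in WT vehicle libraries. The highest initiation factors per length were Eif4g2 (40.02), a scaffold that lacks the eIF4E-binding site, and Eif4g1 (37.5), the main scaffold. Eif5a followed at 24.8, then Eif3h at 24.0. Within eIF3, whose subunits join into 1 complex, tested genes spanned 8.96-fold, between Eif3h and the loosely bound Eif3j1 (2.68). The exons merged over all annotated transcripts measured 1612 bases in Eif3h and 5830 in Eif3j1. Without division by length, they averaged 41.5 and 16.5 CPM in WT vehicle libraries. Rankings per length thus depend on the annotated length, which can exceed that of the transcripts present. The lowest tested factors were Eif5a2 (0.393), Eef1e1 (0.582), whose product sits in the multisynthetase complex, and the eIF2B gamma subunit gene Eif2b3 (0.811).

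**Figure D1:**
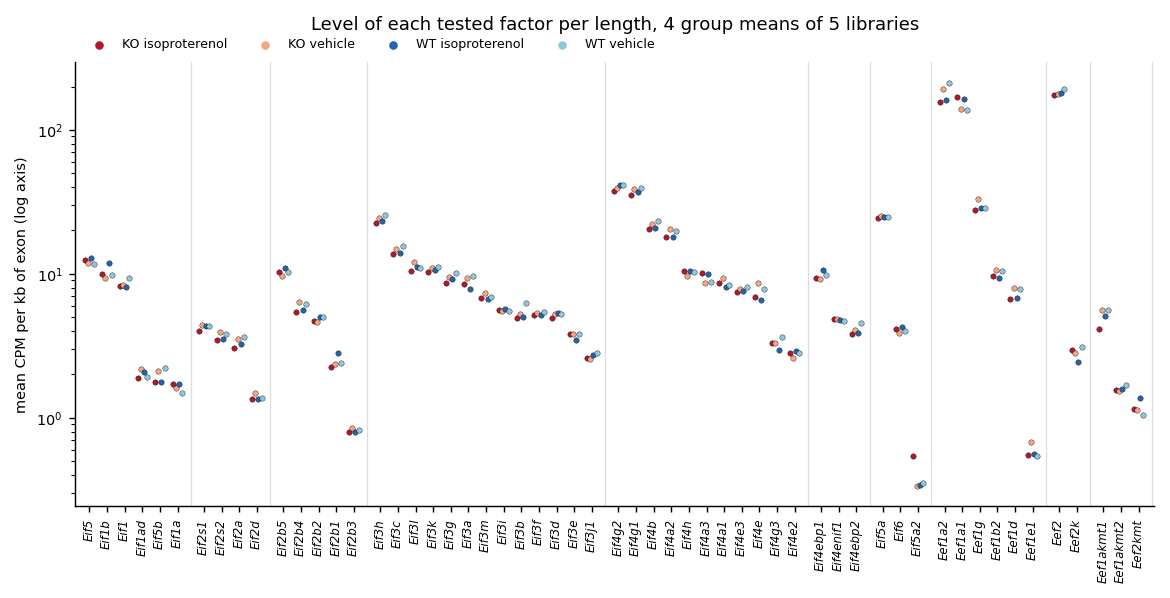
Mean level of each of the 56 tested factors in CPM per kilobase of exon (log axis), with 1 point for each of the 4 groups (mean of 5 libraries). Eef2, Eef1a2 and Eef1a1 stand above 100 in every group, and Eif5a2 and Eef1e1 lie lowest.

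Isoproterenol moved 13 of the 56 tested factors, and most of these were lower. With the response averaged over both genotypes, 2 factors rose (3.57% of the 56) and 11 fell (19.6%), where 9.76% of all 14878 tested genes were higher, 9.07% were lower and 18.8% passed in either direction. A gene passed at a p under 0.05 in the quasi-likelihood test of edgeR after Benjamini-Hochberg adjustment. The risers were Eef1a1 and Eif4a3. The factors that fell were Eef1a2, Eif4e, Eef1d, Eif2a, Eif2b4, Eif4b, Eif4g1, Eif4a2, Eef1b2, Eif3h and Eef1akmt1. The median log2 fold change was −0.07 over the factors and 0.01 over all tested genes. Below 0 lay 40 of 56 factors and 7193 of all 14878 tested genes.

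In KO hearts alone 9 factors passed (9.03% of all tested genes did). Eef1a1, Eif4a3 and Eif5a2 rose, and Eef1a2, Eif4e, Eef1d, Eif2a, Eif4a2 and Eef1g fell, against 4.75% of all tested genes higher and 4.29% lower. The count was 4 without KO isoproterenol replicate 5, 5 without KO vehicle replicate 3 and 3 without KO vehicle replicate 4. In WT hearts alone 4 factors fell, Eef1a2, Eif4e, Eef2k and Eef1d, and none rose in edgeR (8.76% of all tested genes passed, 4.12% lower and 4.64% higher), where 18 factors had an unadjusted p under 0.05, 4 of them higher and 14 lower (23% of all tested genes stood at that level). DESeq2 and limma-voom also called 0 higher, and limma-voom with quality weights, no filter and a fit of the WT groups alone called 1 each. Without both libraries that stood apart, 6 factors passed in each genotype and 14 on average. The shares of all tested genes given here are those of the main edgeR fit to all 20 libraries. Shares for the runs that left out libraries are not given, so their counts cannot be set beside them. Isoproterenol and vehicle libraries did not overlap for 8 factors in KO (8.06% of all tested genes) and 8 in WT (8.05%). The KO and WT responses share no library. In them 31 factors lay below 0 in both genotypes, 13 above 0 in both and 12 on opposite sides. How many of all tested genes had the same sign in both genotypes was not counted. Whether this degree of agreement is particular to the factors is therefore not known. Of the 56 factors 38 lay below 0 in KO and 36 in WT, against 7066 and 7327 of all 14878 tested genes. Whether any factor's responses differed is given with the knockout comparisons.

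**Figure D2:**
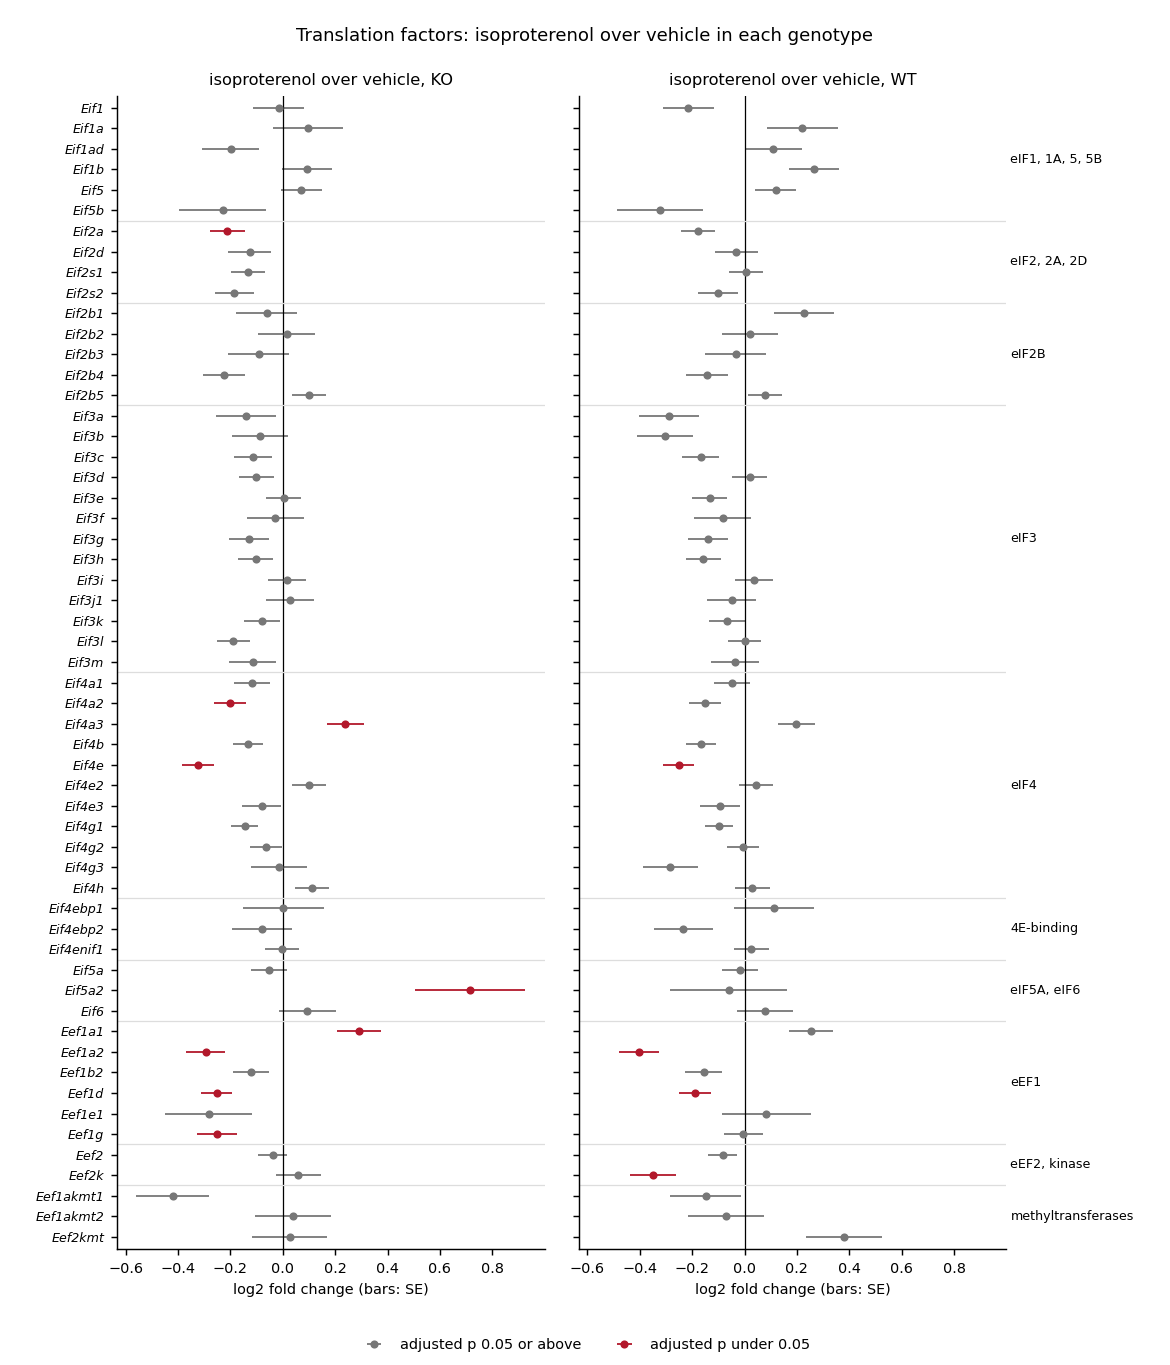
Log2 fold change of isoproterenol over vehicle (points, with SE as bars) for the 56 tested factors, grouped by complex, in KO hearts (left) and WT hearts (right). Red points passed at an edgeR adjusted p under 0.05, 9 in KO and 4 in WT.

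Eef1a2 fell and Eef1a1 rose with isoproterenol. KO hearts had Eef1a2 at 336, 378, 342, 310.3 and 272 CPM with isoproterenol, against 430.1, 402, 358, 383 and 435 CPM with vehicle. WT hearts had Eef1a2 at 347, 347, 334, 326 and 325 CPM with isoproterenol, against 392, 479, 430.0, 495 and 425 CPM with vehicle. All WT isoproterenol libraries lay below all WT vehicle libraries, while in KO a single isoproterenol library (replicate 2) lay above the lowest vehicle library. For Eef1a2 (ENSMUSG00000016349.10, chromosome 2, 181147653 to 181157014) the log2 fold change was −0.30 (SE 0.0756, adjusted p = 0.0118) in KO and −0.40 (SE 0.0756, adjusted p = 0.000722) in WT, or 0.815 and 0.756 times the vehicle level. It passed without each library in turn and under every other alternative run.

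KO hearts had Eef1a1 at 393, 415, 371, 374 and 565 CPM with isoproterenol, against 362, 365, 341, 353 and 311 CPM with vehicle. WT hearts had Eef1a1 at 416, 390.1, 410.4, 411 and 411 CPM with isoproterenol, against 361, 308, 334, 331 and 375 CPM with vehicle. The groups did not overlap in either genotype. For Eef1a1 (ENSMUSG00000037742.14, chromosome 9, 78478449 to 78489151) the log2 fold change averaged 0.27 (SE 0.0597, adjusted p = 0.00159). In KO it was 0.29 (SE 0.0845, adjusted p = 0.0269), and 0.17 with both libraries that stood apart removed (adjusted p = 0.0487), and the KO call was lost without KO isoproterenol replicate 5 or without KO vehicle replicate 3, 4 or 5. In WT it was 0.25 (SE 0.0845, adjusted p = 0.0573), just short of the threshold, and 0.22 with both removed (adjusted p = 0.0089).

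The share of Eef1a1 in the summed level of the pair per kilobase was higher with isoproterenol. It was 49.4%, 47.8%, 47.5%, 50.2% and 63.5% in KO isoproterenol, against 41.3%, 43.2%, 44.3%, 43.5% and 37.4% in KO vehicle libraries. It was 50.02%, 48.5%, 50.7%, 51.3% and 51.4% in WT isoproterenol, against 43.5%, 35.0%, 39.4%, 35.8% and 42.5% in WT vehicle libraries. No isoproterenol library reached down to a vehicle library of its genotype. The summed level of both genes was 327 ± 24.5 CPM per kilobase in KO isoproterenol and 332 ± 16.1 in KO vehicle, and 325 ± 5.16 in WT isoproterenol and 350.4 ± 14.4 in WT vehicle libraries (SD, n = 5 each).

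Markers of cell types moved in the same libraries. The summed 8 cardiomyocyte markers ran from 19916 to 26431 CPM in KO isoproterenol and 26801 to 29047 in KO vehicle, and from 24226 to 26547 in WT isoproterenol and 28428 to 34123 in WT vehicle libraries. The summed 8 fibroblast markers ran from 690 to 1994 CPM in KO isoproterenol and 527 to 674 in KO vehicle, and from 624 to 785 in WT isoproterenol and 496 to 591 in WT vehicle libraries. With both genotypes averaged, 9.76% of all tested genes were higher and 9.07% lower. Of the markers, 1 cardiomyocyte marker was higher and 4 lower, 6 of 8 fibroblast and 6 of 8 macrophage markers were higher, and no marker was at 0 in all libraries. Of 7 smooth muscle and pericyte markers 3 were higher, and of 7 endothelial markers 3 were higher and 1 lower. None of the 4 tested adipocyte and 5 erythroid markers passed, and the median log2 fold change of the erythroid markers was 0.37 in KO and −0.46 in WT. In bulk tissue, fewer cells of a type and less RNA per cell cannot be told apart, and the part of such shifts in the factors' changes was not tested.

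**Figure D3:**
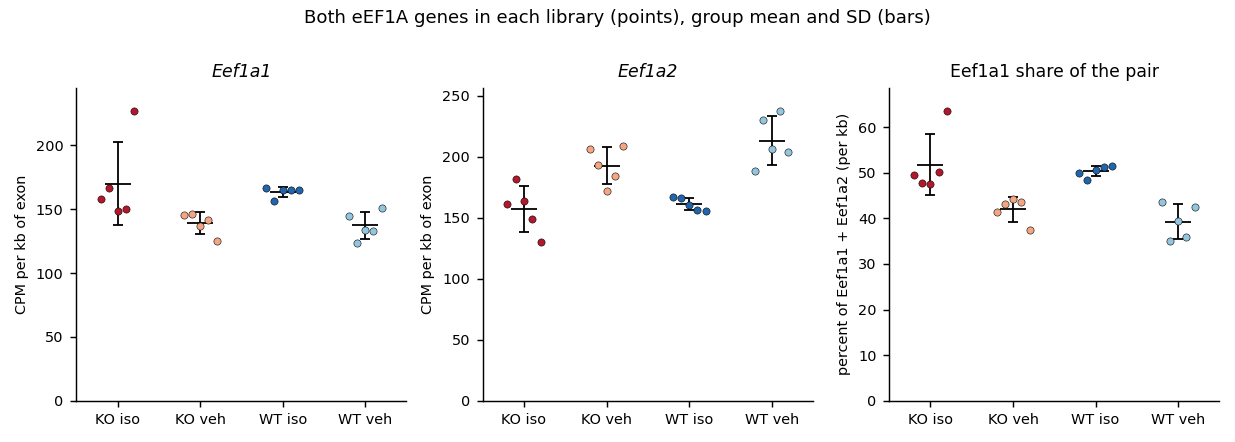
Level of Eef1a1 (left) and Eef1a2 (middle) in CPM per kilobase of exon, and Eef1a1 as a percent of the pair (right), in each of the 20 libraries (points) with group mean and SD (bars, n = 5). The Eef1a1 share lies between 47.5% and 63.5% with isoproterenol and between 35.0% and 44.3% with vehicle.

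Subunits of the exchange complex that recharges eEF1A were also lower. KO hearts had Eef1d at 45.2, 42.9, 42.6, 44.0 and 40.8 CPM with isoproterenol, against 49.7, 52.4, 53.4, 54.3 and 47.2 CPM with vehicle. WT hearts had Eef1d at 42.0, 44.9, 43.1, 43.3 and 48.6 CPM with isoproterenol, against 50.1, 45.1, 53.5, 51.4 and 52.7 CPM with vehicle. In KO the groups of this delta subunit gene did not overlap, and in WT isoproterenol replicate 5 lay above vehicle replicate 2. For Eef1d the log2 fold change was −0.25 (SE 0.0604, adjusted p = 0.00707) in KO and −0.19 (SE 0.0604, adjusted p = 0.0461) in WT, and the WT call was lost in 15 of 20 runs that left out 1 library (all but those without KO isoproterenol replicate 5, KO vehicle replicate 3 or 5, WT isoproterenol replicate 5 or WT vehicle replicate 2). It averaged −0.22 (SE 0.0427, adjusted p = 0.000394). With both libraries that stood apart removed, Eef1d was at −0.23 in KO (SE 0.0581, adjusted p = 0.0108) and −0.23 in WT (SE 0.0575, adjusted p = 0.00861).

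Eef1g, the gamma subunit that anchors the complex, fell in KO hearts. KO hearts had Eef1g at 68.1, 67.2, 69.7, 75.9 and 77.9 CPM with isoproterenol, against 76.4, 88.6, 91.5, 92.1 and 78.8 CPM with vehicle. WT hearts had Eef1g at 65.5, 72.5, 80.6, 71.1 and 80.8 CPM with isoproterenol, against 72.2, 62.1, 76.2, 80.2 and 80.6 CPM with vehicle. The KO groups overlapped at isoproterenol replicate 5, and the WT groups overlapped widely. For Eef1g the log2 fold change was −0.25 (SE 0.0753, adjusted p = 0.0322) in KO and −0.00 (SE 0.0754, adjusted p = 0.979) in WT. The difference between these responses was −0.25 (SE 0.106, adjusted p = 0.601), which did not pass, and the KO call was lost without KO isoproterenol replicate 1, 2 or 3 or KO vehicle replicate 2, 3 or 4. With both libraries that stood apart removed, Eef1g was at −0.28 in KO (adjusted p = 0.00758) and −0.06 in WT (adjusted p = 0.623). In that run it averaged −0.17 (adjusted p = 0.0105), and the difference was −0.21 (adjusted p = 0.625). Eef1b2, a beta subunit with exchange activity, had 22.5 to 29.1 CPM in KO isoproterenol and 23.8 to 28.7 in KO vehicle libraries. In WT Eef1b2 had 21.7 to 24.3 CPM with isoproterenol and 25.6 to 27.2 with vehicle, without overlap. Its averaged log2 response of −0.14 (SE 0.0490, adjusted p = 0.0445) passed in 4 of 20 runs without 1 library (KO isoproterenol replicate 5, KO vehicle replicate 5, WT isoproterenol replicate 1 or WT vehicle replicate 2). With both libraries that stood apart removed, the averaged response of Eef1b2 was −0.18 (SE 0.0452, adjusted p = 0.00516). Eef1e1, grouped here by name and not a subunit of the exchange complex, did not pass (average −0.10 (SE 0.118, adjusted p = 0.606)).

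The gene of the translocase eEF2 did not pass, and that of its kinase did in WT. Eef2 ran from 555 to 621 CPM in KO isoproterenol and 563 to 649 in KO vehicle, and from 589 to 618 in WT isoproterenol and 592 to 659 in WT vehicle libraries, with an averaged log2 response of −0.06 (SE 0.0395, adjusted p = 0.303) and a 95% interval of −0.14 to 0.02. Eef2k encodes the calcium- and calmodulin-dependent kinase that phosphorylates and halts eEF2. KO hearts had Eef2k at 24.5, 23.7, 18.7, 20.4 and 21.5 CPM with isoproterenol, against 24.0, 23.5, 17.4, 19.6 and 19.7 CPM with vehicle. WT hearts had Eef2k at 18.8, 18.1, 19.1, 17.6 and 17.0 CPM with isoproterenol, against 19.1, 24.2, 23.2, 25.3 and 23.7 CPM with vehicle. In WT 4 of 5 vehicle libraries lay above all isoproterenol libraries, and vehicle replicate 1 fell among them, while the KO groups overlapped widely. For Eef2k the log2 fold change was −0.35 (SE 0.0879, adjusted p = 0.0114) in WT, kept in every alternative run, and 0.06 (SE 0.0872, adjusted p = 0.746) in KO. The difference between the KO and WT responses was 0.41 (SE 0.124, adjusted p = 0.518), with an unadjusted p of 0.00263, and so the responses were not shown to differ.

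The cap-binding protein gene Eif4e fell in both genotypes. KO hearts had Eif4e at 42.7, 41.3, 44.7, 41.6 and 36.7 CPM with isoproterenol, against 49.3, 51.2, 54.0, 53.0 and 51.7 CPM with vehicle. WT hearts had Eif4e at 41.7, 36.3, 41.5, 39.4 and 39.4 CPM with isoproterenol, against 46.5, 48.5, 46.5, 44.0 and 50.6 CPM with vehicle. No isoproterenol library reached a vehicle library in either genotype. For Eif4e (ENSMUSG00000028156.12, chromosome 3, 138526179 to 138559696) the log2 fold change was −0.32 (SE 0.0604, adjusted p = 0.000669) in KO and −0.25 (SE 0.0606, adjusted p = 0.00773) in WT, and both calls held in every alternative run. The level with isoproterenol was 0.798 times that with vehicle in KO and 0.84 times in WT. The other cap-binding genes did not pass: Eif4e2, which encodes a repressive cap-binding protein, averaged 0.07 (adjusted p = 0.284) and Eif4e3 averaged −0.09 (adjusted p = 0.269).

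Of the 3 tested repressors that bind eIF4E, none passed in edgeR with the genotypes averaged, and 0 had an unadjusted p under 0.05 (31.7% of all tested genes did). Eif4ebp1, a main target of mTORC1, averaged 0.06 (SE 0.108, adjusted p = 0.766), Eif4ebp2 averaged −0.16 (SE 0.0805, adjusted p = 0.185) and Eif4enif1, the shuttling protein 4E-T, averaged 0.01 (SE 0.0466, adjusted p = 0.9). Per kilobase, the summed level of Eif4ebp1 and Eif4ebp2 was 1.90 ± 0.0922 times that of Eif4e in KO isoproterenol and 1.54 ± 0.129 times in KO vehicle libraries. In WT this ratio was 2.20 ± 0.386 with isoproterenol and 1.83 ± 0.164 with vehicle (SD, n = 5 each). It ran from 1.80 to 2.05 in KO isoproterenol and from 1.33 to 1.66 in KO vehicle libraries, without overlap. It ran from 1.58 to 2.65 in WT isoproterenol and from 1.66 to 2.03 in WT vehicle libraries, with overlap.

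The helicase genes moved apart. Eif4a3, the helicase of the exon junction complex rather than of cap-dependent initiation, rose. KO hearts had Eif4a3 at 20.3, 22.0, 20.0, 21.8 and 23.6 CPM with isoproterenol, against 17.4, 17.6, 19.3, 18.7 and 18.4 CPM with vehicle. WT hearts had Eif4a3 at 18.6, 22.7, 20.8, 20.8 and 23.6 CPM with isoproterenol, against 19.4, 16.1, 18.1, 19.5 and 19.4 CPM with vehicle. The KO groups did not overlap, and the WT groups overlapped at isoproterenol replicate 1. For Eif4a3 the log2 fold change was 0.24 (SE 0.0710, adjusted p = 0.0307) in KO, 0.20 (SE 0.0713, adjusted p = 0.0801) in WT and 0.22 (SE 0.0503, adjusted p = 0.0024) on average. The KO call was lost without KO isoproterenol replicate 2, 4 or 5, without KO vehicle replicate 1, 2, 4 or 5, and with both libraries that stood apart removed (0.21, adjusted p = 0.0628).

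Eif4a2, a helicase of the cap-binding complex that is the more abundant form per length here, fell. KO hearts had Eif4a2 at 95.8, 90.5, 104, 98.2 and 90.3 CPM with isoproterenol, against 102, 104, 121, 116 and 107 CPM with vehicle. WT hearts had Eif4a2 at 98.9, 87.1, 96.3, 102 and 95.8 CPM with isoproterenol, against 106, 108, 110.4, 99.6 and 110.2 CPM with vehicle. In both genotypes the groups overlapped at 1 isoproterenol library, KO replicate 3 and WT replicate 4. For Eif4a2 the log2 fold change was −0.20 (SE 0.0608, adjusted p = 0.0332) in KO, −0.15 (SE 0.0608, adjusted p = 0.12) in WT and −0.18 (SE 0.0430, adjusted p = 0.00389) on average. The KO call was lost without KO isoproterenol replicate 1, 2 or 5, without KO vehicle replicate 3 or 4, and with both libraries that stood apart removed (−0.18, adjusted p = 0.0661). Its paralog Eif4a1 averaged −0.08 (adjusted p = 0.256).

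Among the helicase cofactors and scaffolds, Eif4b and Eif4g1 were lower on average. Eif4b, which stimulates eIF4A, ran from 86.1 to 97.8 CPM in KO isoproterenol and 91.4 to 105 in KO vehicle, and from 90.2 to 98.2 in WT isoproterenol and 100.3 to 115 in WT vehicle libraries. Its averaged log2 fold change was −0.15 (SE 0.0401, adjusted p = 0.00811). Eif4g1 ran from 231 to 270.2 CPM in KO isoproterenol and 271 to 294 in KO vehicle, and from 261 to 275 in WT isoproterenol and 281 to 295 in WT vehicle libraries, and overlapped in neither genotype. Its averaged log2 fold change was −0.12 (SE 0.0369, adjusted p = 0.019), lost with no filter on low counts (adjusted p = 0.0647). Eif4g2, Eif4g3 and Eif4h, a further helicase cofactor, did not pass, at −0.03, −0.15 and 0.07. Of the 11 tested eIF4 genes, 1 was higher and 4 were lower on average, with a median log2 fold change of −0.09. Of all tested genes, 9.76% were higher and 9.07% lower.

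**Figure D4:**
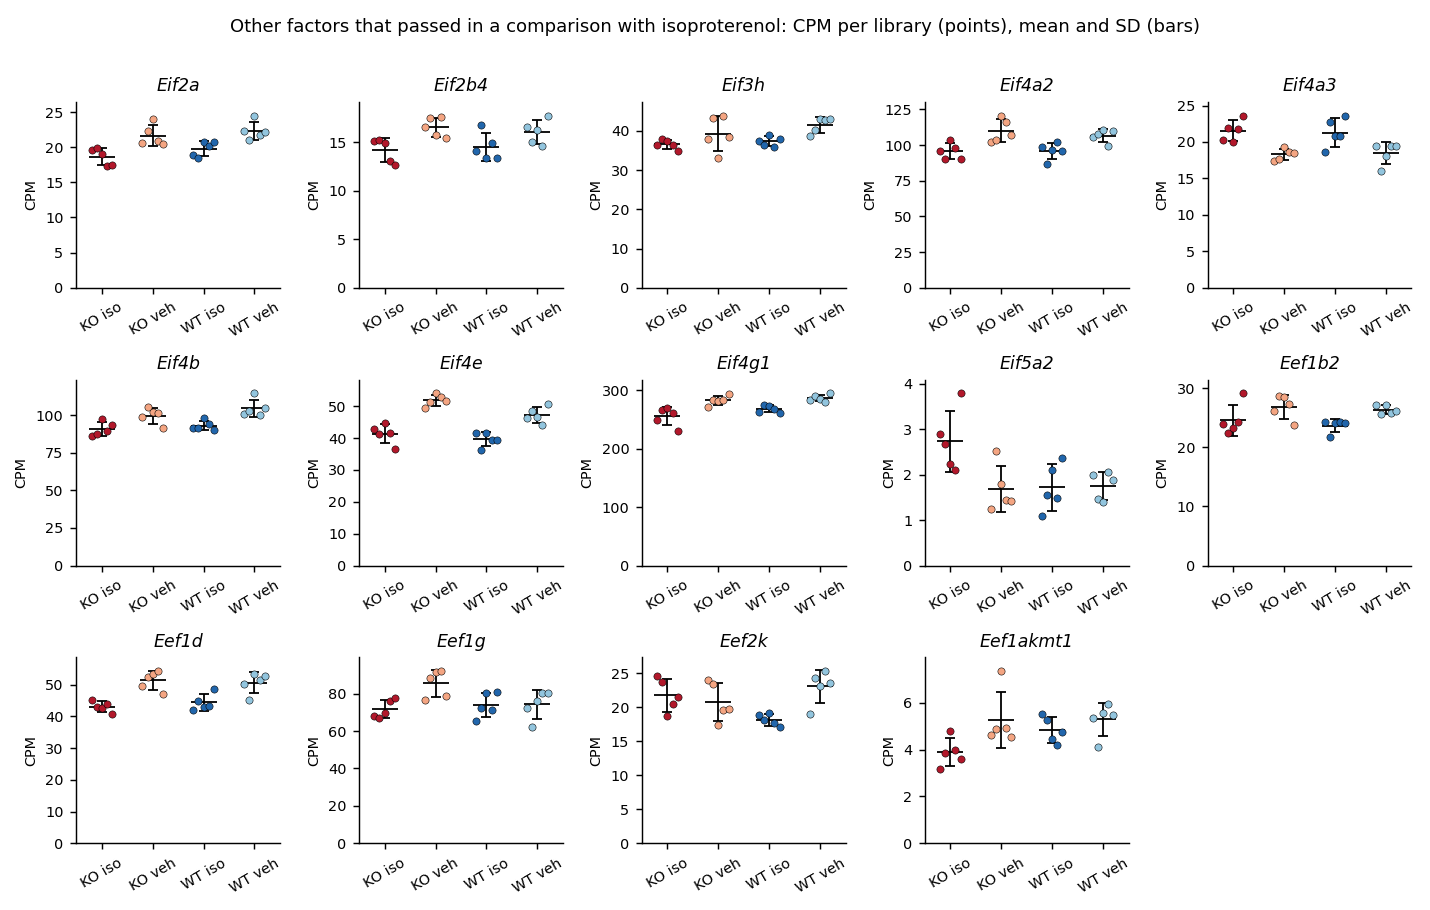
CPM of the 14 other factors that passed in at least 1 comparison, in each library (points) with group mean and SD (bars, n = 5 per group). Eif4e lies lower in every isoproterenol library than in the vehicle libraries of the same genotype.

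Of the eIF2 genes and their stand-ins, Eif2a fell. Eif2a encodes a protein that can bring the initiator tRNA to some mRNAs without eIF2 and is not a subunit of eIF2. KO hearts had Eif2a at 19.6, 19.9, 19.0, 17.3 and 17.5 CPM with isoproterenol, against 20.5, 22.3, 24.0, 20.9 and 20.5 CPM with vehicle. WT hearts had Eif2a at 18.8, 18.5, 20.8, 20.1 and 20.7 CPM with isoproterenol, against 22.2, 21.0, 24.5, 21.7 and 22.1 CPM with vehicle. The groups did not overlap in either genotype. For Eif2a the log2 fold change was −0.21 (SE 0.0665, adjusted p = 0.0408) in KO, −0.18 (SE 0.0662, adjusted p = 0.0932) in WT and −0.19 (SE 0.0469, adjusted p = 0.00357) on average, and the KO call was lost without KO isoproterenol replicate 3, 4 or 5, KO vehicle replicate 2, 3 or 4, WT isoproterenol replicate 4 or WT vehicle replicate 5, and with both libraries that stood apart removed (adjusted p = 0.101). Eif2s1, the eIF2 alpha subunit whose phosphorylation is the switch of the integrated stress response, ran from 18.5 to 21.4 CPM in KO isoproterenol and 20.5 to 22.9 in KO vehicle, and from 19.1 to 23.3 in WT isoproterenol and 20.9 to 22.4 in WT vehicle libraries, and averaged −0.06 (SE 0.0458, adjusted p = 0.362). The beta subunit gene Eif2s2 averaged −0.14 (SE 0.0536, adjusted p = 0.0604), and Eif2d, a tRNA delivery and recycling factor, −0.08 (SE 0.0585, adjusted p = 0.378). Phosphorylation is not measured by RNA counts.

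Within eIF2B, the exchange factor of eIF2, 1 of 5 genes passed on average, where 18.8% of all tested genes did. The delta subunit gene Eif2b4 ran from 12.7 to 15.2 CPM in KO isoproterenol and 15.4 to 17.6 in KO vehicle, and from 13.4 to 16.8 in WT isoproterenol and 14.62 to 17.8 in WT vehicle libraries, without overlap in KO. Its averaged log2 fold change was −0.18 (SE 0.0561, adjusted p = 0.0205), and the call held in every alternative run. The catalytic epsilon subunit gene Eif2b5 averaged 0.09 (SE 0.0463, adjusted p = 0.18). Eif2b1, Eif2b2 and Eif2b3 averaged 0.08, 0.02 and −0.06, so that the subunits of this complex did not share a sign.

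The subunits of eIF3, the largest initiation factor, which holds the small ribosomal subunit, lay mostly below 0. On average 12 of 13 tested genes had a log2 fold change below 0 and Eif3h passed, with a median of −0.08. Of all 14878 tested genes, 7193 lay below 0 and 18.8% passed. Eif3h ran from 34.9 to 37.8 CPM in KO isoproterenol and 33.1 to 43.9 in KO vehicle, and from 35.8 to 39.0 in WT isoproterenol and 38.6 to 43.1 in WT vehicle libraries. Its averaged log2 response of −0.13 (SE 0.0463, adjusted p = 0.047) passed in 5 of 20 runs without 1 library (KO vehicle replicate 1 or 3, WT isoproterenol replicate 3, WT vehicle replicate 1 or 2) and was lost with both libraries that stood apart removed (adjusted p = 0.0619). The core subunit genes Eif3a and Eif3b, which stood high in WT vehicle replicate 2, averaged −0.22 (SE 0.0811, adjusted p = 0.07) and −0.20 (SE 0.0762, adjusted p = 0.0733). Once both outlying libraries were left out, Eif3a averaged −0.12 (SE 0.0468, adjusted p = 0.0806) and Eif3b −0.15 (SE 0.0562, adjusted p = 0.0625), and their WT responses were −0.11 (SE 0.0662, adjusted p = 0.328) and −0.16 (SE 0.0786, adjusted p = 0.214), against −0.29 and −0.30 with all libraries. The third core gene Eif3c averaged −0.14 (SE 0.0510, adjusted p = 0.0513). Eif3l, a peripheral subunit, had 35.6 to 39.3 CPM in KO isoproterenol and 40.7 to 45.5 in KO vehicle libraries, which did not overlap, and a KO log2 response of −0.19 (SE 0.0636, adjusted p = 0.0581), against 0.00 in WT. Without both outlying libraries Eif3l was at −0.19 in KO (SE 0.0591, adjusted p = 0.0387) and −0.05 in WT (SE 0.0585, adjusted p = 0.654). The summed level of the 14 genes was 108 ± 3.44 CPM per kilobase in KO isoproterenol and 116 ± 6.22 in KO vehicle, and 110.1 ± 3.02 in WT isoproterenol and 119.5 ± 2.38 in WT vehicle libraries (SD, n = 5 each), with no overlap in WT.

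None of the 6 genes grouped under start codon selection passed in edgeR. With the genotypes averaged 2 had an unadjusted p under 0.05, a level that 31.7% of all tested genes reached. Eif1, whose product keeps the ribosome scanning until it meets a start codon, averaged −0.11 (SE 0.0692, adjusted p = 0.264), and its paralog Eif1b 0.18 (SE 0.0674, adjusted p = 0.0626). Eif1b ran from 10.8 to 12.0 CPM in KO isoproterenol and 9.59 to 11.6 in KO vehicle, and from 11.3 to 16.4 in WT isoproterenol and 8.67 to 12.7 in WT vehicle libraries. Eif5, the GTPase activator of eIF2, averaged 0.09, Eif1a 0.16 and Eif1ad −0.04. Eif5b, the GTPase that joins the ribosomal subunits, averaged −0.28 (SE 0.117, adjusted p = 0.111). Its WT vehicle libraries held 17.1, 36.5, 16.4, 21.6 and 16.9 CPM, with the library that stood apart (replicate 2) highest. Leaving out both outlying libraries gave Eif5b an average of −0.15 (SE 0.0595, adjusted p = 0.0737) and a WT response of −0.07 (SE 0.0839, adjusted p = 0.671), against −0.32 with all libraries. Eif1, at 26.9 CPM in that WT vehicle library, then averaged −0.06 (SE 0.0568, adjusted p = 0.553).

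Eif5a2 rose in KO hearts, from low counts. Eif5a and its rarer paralog Eif5a2 encode eIF5A, the hypusine-bearing factor that helps ribosomes through proline-rich stretches. KO hearts had Eif5a2 at 2.89, 2.67, 2.24, 2.1 and 3.79 CPM with isoproterenol, against 1.25, 2.53, 1.79, 1.44 and 1.42 CPM with vehicle. WT hearts had Eif5a2 at 1.10, 1.54, 2.1, 1.48 and 2.38 CPM with isoproterenol, against 1.99, 1.47, 1.39, 2.06 and 1.89 CPM with vehicle. These values rest on 19 to 90 reads per library, and the KO groups overlapped at vehicle replicate 2. For Eif5a2 the log2 fold change was 0.72 (SE 0.210, adjusted p = 0.0281) in KO and −0.06 (SE 0.222, adjusted p = 0.908) in WT. The KO call was lost without KO isoproterenol replicate 1 or 5, without KO vehicle replicate 1, 4 or 5, and with both libraries that stood apart removed (0.56, adjusted p = 0.101). Eif5a itself averaged −0.04 (SE 0.0492, adjusted p = 0.669). Eif6, which keeps the large ribosomal subunit from joining too early, averaged 0.09 (SE 0.0766, adjusted p = 0.473).

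Of the 3 tested methyltransferase genes, Eef1akmt1, an eEF1A lysine methyltransferase, was lower on average. It ran from 3.19 to 4.80 CPM in KO isoproterenol and 4.55 to 7.35 in KO vehicle, and from 4.19 to 5.54 in WT isoproterenol and 4.12 to 5.97 in WT vehicle libraries, with overlap in both. The averaged log2 response of −0.28 (SE 0.0973, adjusted p = 0.039) was lost in 12 of 20 runs without 1 library, and passed without KO isoproterenol replicate 3, KO vehicle replicate 1, 2, 4 or 5, WT isoproterenol replicate 1 or 2, or WT vehicle replicate 2. Eef1akmt2 averaged −0.02, and Eef2kmt, the eEF2 methyltransferase gene, 0.20 (SE 0.102, adjusted p = 0.173).

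Loss of OGFOD1 moved no factor past the test. The KO and WT groups gave 0 called factors of 56 under isoproterenol (0.181% of all tested genes passed, with 0.0538% higher and 0.128% lower), 0 under vehicle (0.128%, with 0.0605% higher and 0.0672% lower) and 0 with both treatments averaged (0.847%, with 0.383% higher and 0.464% lower), in edgeR. DESeq2 and limma-voom also gave 0 in each of these. The KO and WT libraries were separate, with no overlap, for 0 factors under isoproterenol (2.14% of all tested genes) and 0 under vehicle (2.02%). At an unadjusted p under 0.05 there were 6 factors under isoproterenol, 4 under vehicle and 7 on average, where 13.0%, 8.31% and 12.8% of all tested genes stood at that level. The median log2 fold change of the factors was −0.03 under isoproterenol, −0.04 under vehicle and −0.03 on average. Over all tested genes it was 0.004, 0.003 and 0.004, in the same order. Below 0 lay 40, 33 and 35 of the 56 factors, against 7287, 7319 and 7196 of all 14878 tested genes. The 95% intervals lay within 1.5-fold in either direction for 54 of 56 factors under isoproterenol (all but Eif5a2 and Eef1akmt1), 55 under vehicle (all but Eef1e1) and 55 on average (all but Eif5a2).

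The factors nearest to the threshold differed between the treatments. Under isoproterenol these were Eif5a2 at 2.1 to 3.79 CPM in KO and 1.10 to 2.38 in WT libraries, whose log2 fold change reached 0.71 (SE 0.213, adjusted p = 0.156), then Eef2k at 18.7 to 24.5 CPM in KO and 17.0 to 19.1 in WT libraries, with 0.26 (SE 0.0884, adjusted p = 0.213). With no filter on low counts Eif5a2 passed under isoproterenol (adjusted p = 0.0462). Eif2b1 (−0.31, adjusted p = 0.258), Eif1b (−0.24, adjusted p = 0.282) and Eef1akmt1 (−0.31, adjusted p = 0.353) followed. Under vehicle the nearest was Eef1g at 76.4 to 92.1 CPM in KO and 62.1 to 80.6 in WT libraries, with 0.20 (SE 0.0752, adjusted p = 0.405), a value that shares the KO vehicle libraries with its isoproterenol response in KO. Eif4e under vehicle was at 0.14 (adjusted p = 0.555), Eif4a1 at 0.15 (adjusted p = 0.569), Eif3b at −0.23 (adjusted p = 0.579) and Eef1e1 at 0.33 (adjusted p = 0.6). The Eif3b value was −0.09 (SE 0.0779, adjusted p = 0.813) when WT vehicle replicate 2 and KO isoproterenol replicate 5 were left out. Averaged over treatments, Eif4a1 was at 0.11 (SE 0.0487, adjusted p = 0.305), Eif4e at 0.10 (SE 0.0427, adjusted p = 0.317) and Eif1b at −0.15 (SE 0.0674, adjusted p = 0.325).

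The isoproterenol responses of KO and WT hearts were not shown to differ for any factor. The test of the difference called 0 of 56 factors and 0% of all tested genes in edgeR, and DESeq2 and limma-voom called 0 factors too. An unadjusted p under 0.05 was reached by 4 factors (7.68% of all tested genes), which were Eef2k, Eif5a2 (0.78 (SE 0.306, adjusted p = 0.534)), Eef1g and Eif3l (−0.19 (SE 0.0900, adjusted p = 0.634)). The 95% interval reached past 1.5-fold for 9 of the 56, so that differences of that size were within the error for them.

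**Figure D5:**
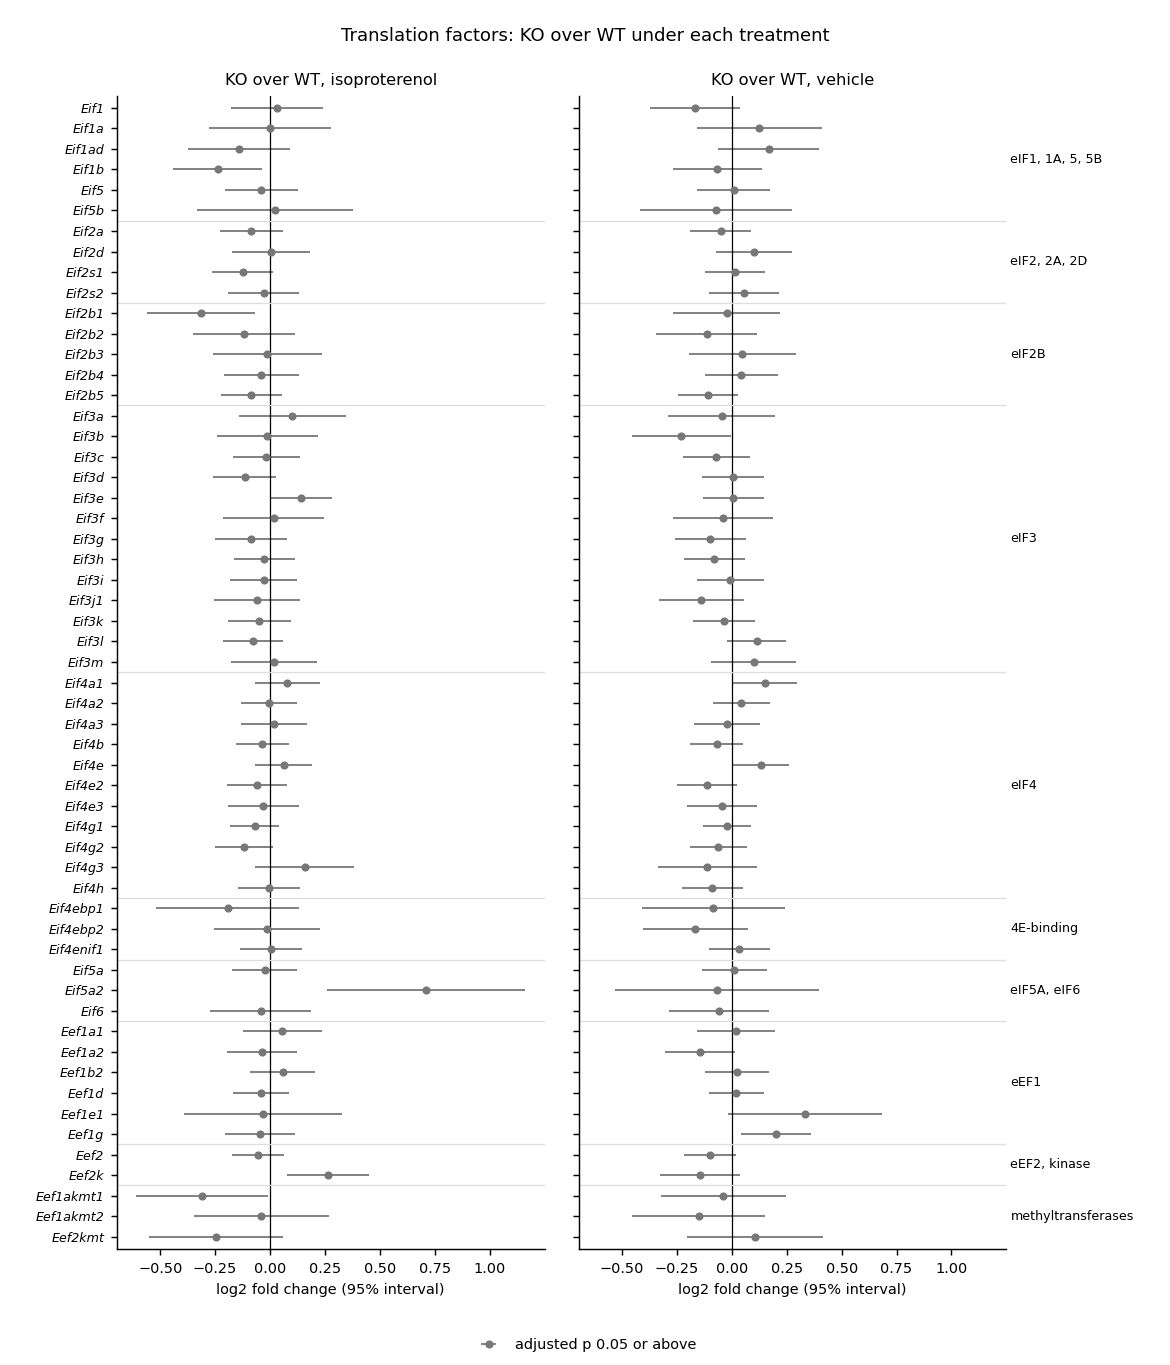
Log2 fold change of KO over WT (points, with 95% intervals as bars) for the 56 tested factors, grouped by complex, with isoproterenol (left) and with vehicle (right). No factor passed at an edgeR adjusted p under 0.05, and Eif5a2 with isoproterenol lies farthest from 0 at 0.71.

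Genes that act on these factors were counted in lists written out by role. For each list, the share to compare is that of all tested genes with isoproterenol. It was 9.76% higher and 9.07% lower on average, 4.75% and 4.29% in KO, and 4.64% and 4.12% in WT. Among 8 kinases and phosphatase subunits of eIF2 alpha, 2 rose with isoproterenol on average, Ppp1r15a, the stress-induced phosphatase subunit GADD34 (0.28 (SE 0.0732, adjusted p = 0.00804)), and Eif2ak2, the RNA-activated kinase PKR (0.31 (SE 0.0828, adjusted p = 0.00858)). Ppp1r15a had 16.6 to 28.3 CPM in KO isoproterenol and 15.2 to 18.9 in KO vehicle, and 21.0 to 25.1 in WT isoproterenol and 16.2 to 21.2 in WT vehicle libraries. Among 15 genes of the mTORC1 and MNK arm, Pdcd4, an inhibitor of the eIF4A helicase, rose in KO and on average, at 0.42 (SE 0.0937, adjusted p = 0.00383) in KO and 0.31 (SE 0.0659, adjusted p = 0.00121) on average, and no other passed. Pdcd4 had 9.38, 7.75, 8.67, 7.21 and 8.50 CPM in KO isoproterenol, against 6.00, 5.88, 6.97, 6.26 and 6.08 CPM in KO vehicle libraries, and these groups did not overlap.

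Of 6 poly(A)-binding proteins and partners, Pabpc4 fell in both genotypes. It had 69.9, 70.9, 74.7, 75.0 and 65.0 CPM in KO isoproterenol, against 87.2, 96.0, 93.5, 89.5 and 94.9 CPM in KO vehicle libraries. It had 77.3, 83.0, 79.9, 77.4 and 69.6 CPM in WT isoproterenol, against 91.2, 89.2, 93.1, 90.8 and 88.4 CPM in WT vehicle libraries. The groups did not overlap, and the log2 fold change was −0.38 (SE 0.0569, adjusted p = 5.62e-05) in KO and −0.22 (SE 0.0568, adjusted p = 0.0114) in WT. Among 6 termination and recycling genes, Denr, a factor that clears tRNA from the small subunit after termination, had 8.38 to 10.1 CPM in KO isoproterenol and 11.8 to 13.2 in KO vehicle, and 8.18 to 11.5 in WT isoproterenol and 11.2 to 13.0 in WT vehicle libraries, and averaged −0.33 (SE 0.0616, adjusted p = 0.000289). The termination factor gene Gspt1 (eRF3a) averaged −0.18 (SE 0.0463, adjusted p = 0.00565).

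With isoproterenol on average, 9.07% of all tested genes were lower and 9.76% higher, with a median log2 fold change of 0.01. Of the 10 factors of mitochondrial translation, 5 fell on average and none rose, with a median log2 fold change of −0.14. These were the elongation factor genes Tufm (−0.16 (SE 0.0499, adjusted p = 0.0221)) and Gfm1 (−0.19 (SE 0.0454, adjusted p = 0.0029)), the recycling factor genes Gfm2 (−0.20 (SE 0.0410, adjusted p = 0.000858)) and Mrrf (−0.22 (SE 0.0541, adjusted p = 0.00409)), and the release factor gene Mtrf1l (−0.33 (SE 0.0898, adjusted p = 0.00988)). In KO the same 5 passed, and in WT Gfm2 passed, where 4.29% of all tested genes were lower in KO and 4.12% in WT. None of the 9 hypusine and diphthamide enzymes, which modify eIF5A and eEF2, passed in any isoproterenol comparison in edgeR. Neither did any of the 3 other cytosolic elongation factors. On average 1 of the first list and 0 of the other had an unadjusted p under 0.05, against 31.7% of all tested genes. No gene of the 57 in these lists passed in a knockout comparison or in the test of the difference in edgeR. Those with an unadjusted edgeR p under 0.05 numbered 9 under isoproterenol, 3 under vehicle, 6 on average and 1 for the difference. Of all tested genes 13.0%, 8.31%, 12.8% and 7.68% stood at that level, in the same order.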

How the data were processed

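Total RNA from powdered mouse hearts was sequenced after stranded library preparation, per the labels' protocols. Reads were aligned to GRCm38 with HISAT2 2.1.0 and counted per gene with featureCounts 1.6.3, and R 3.6.0 and limma 3.40.6 are also named, per the submitters' processing notes. The authors deposited raw counts for 20 libraries. The sources used here do not give the annotation, the strand setting or the treatment of reads that fit several genes. Of 55335 IDs, 55154 were found in GENCODE vM21, 54587 of them with the same version, and 0 columns lacked a sample.

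Genes were filtered with edgeR's filterByExpr, scaled by TMM and tested with edgeR's quasi-likelihood test (edgeR 4.0.16, R 4.3.3) with 4 group means in 1 fit, with Benjamini-Hochberg adjustment over 14878 genes. CPM include mitochondrial counts in the library size, and CPM per kilobase divides by the merged exon length. Alternatives used DESeq2 1.42.0, limma-voom (limma 3.58.1), RLE and upper quartile scaling, other filters (none, or 50 counts in 5 libraries), removal of mitochondrial genes, 2 surrogate variables (sva 3.50.0), the compared groups alone, and each library left out. Tables and figures used Python 3.11.15, pandas 2.3.3 and matplotlib 3.10.9.

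Counts were simulated from levels averaged over all 20 libraries, with changes placed only in genes above a low count. For isoproterenol in WT (14733 genes), 69% of 100 genes changed 1.5-fold and 88% of 100 changed 2-fold were recovered, with 6 false calls of 163. For the difference between responses (14789 genes) these were 42% and 77%, with 8 false calls of 127. Most factors that passed moved less than 1.5-fold, and recovery of such smaller changes was not simulated. No pair of libraries in a group agreed within sampling noise (lowest chi-square per degree of freedom 2.98). Named factors, 39 in all, were those that passed in any comparison, the 5 with the smallest p in each, the highest and lowest per length of each complex, and a list of central factors, with others given as values. Members and lists were chosen with earlier results of these data known.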

Additional observations from a re-analysis of the deposited data

Results flagged for a closer look

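The levels of named factors were examined for a library far from the other 4 of its group, and 10 of 140 sets of 5 values held one, where chance gives about 1 in 20. Of the libraries that stood apart, KO isoproterenol replicate 5 had Eef1a1 at 565 CPM, where the other 4 libraries had 371 to 415, and Eef1b2 at 29.1 CPM, against 22.5 to 24.3. WT vehicle replicate 2 had Eif3a at 124 CPM, against 70.0 to 77.2, and Eif3b at 29.4 CPM, against 17.2 to 20.2. KO isoproterenol replicate 3 had Eif4g2 high at 423 CPM, against 370.4 to 385, and Eif3l low at 35.6 CPM, against 38.4 to 39.3. KO vehicle replicate 3 had Eef1akmt1 at 7.35 CPM, against 4.55 to 4.91, and KO vehicle replicate 4 had Eif4a1 at 46.7 CPM, against 38.2 to 39.9. WT isoproterenol replicate 2 was low in Eef1a1, at 390.1 CPM against 410.4 to 416, and in Eef1b2, at 21.7 CPM against 24.0 to 24.3.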

How the results depend on the processing

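The isoproterenol responses of named factors (in KO, in WT and averaged) were recomputed under other tools, scalings, filters and sample sets. Of 1120 such log2 fold changes, 1067 stayed on their side of the threshold, 17 lost a call, 36 gained one and 0 reversed. A change of sign was counted as a reversal only if the value was called in at least 1 of the runs compared. Of 2100 without 1 library, 1980 stayed on their side of the threshold, 93 lost a call, 27 gained one and 0 reversed. Of 26 called values, 15 kept their call throughout. The count of factors called with isoproterenol in WT was 7 under limma-voom with quality weights and 7 with no filter on low counts, against 4, and that for KO against WT under isoproterenol was 1 (Eif5a2) with no filter, against 0. Leaving out each library in turn gave 3 to 11 called factors for isoproterenol in KO, 3 to 6 in WT and 10 to 15 on average, and 0 in each knockout comparison and for the difference between responses. Without both libraries that stood apart, an alternative chosen after the data were seen, the counts were 6 in KO, 6 in WT and 14 on average. The share of all tested genes called in each alternative run is not given, so these counts have no such share beside them. With no filter on low counts the calls of Eif2a and Eif4a3 in KO, Eef1d in WT, and Eef1b2, Eif3h and Eif4g1 on average were lost. Fits of the compared groups alone lost Eef1a1, Eif2a and Eif4a2 in KO and Eef1d in WT, upper quartile scaling lost Eef1d in WT, and limma-voom with quality weights lost Eef1a1 in KO. The cause of these shifts was not tested. No paired analysis was possible because the labels give no replicate numbers shared between groups. With 16 residual degrees of freedom the median SE of a factor's log2 fold change was 0.0762 in KO and 0.108 for the difference between responses.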

Other observations

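Eif1ax, Eif2s3x and Eif2s3y, the sex-linked genes of eIF1A and of the eIF2 gamma subunit, were outside the naming rule. Eif1ax averaged 23.6 ± 1.30 CPM in KO isoproterenol, 24.7 ± 1.16 in KO vehicle, 25.1 ± 2.18 in WT isoproterenol and 23.4 ± 1.27 in WT vehicle libraries (SD, n = 5 each). Eif2s3x averaged 18.9 ± 1.94 CPM in KO isoproterenol, 19.7 ± 1.34 in KO vehicle, 18.5 ± 1.6 in WT isoproterenol and 19.6 ± 0.977 in WT vehicle libraries. Eif2s3y averaged 20.6 ± 5.11 CPM in KO isoproterenol, 20.3 ± 4.68 in KO vehicle, 21.6 ± 4.08 in WT isoproterenol and 24.0 ± 2.52 in WT vehicle libraries, and its lowest library, at 11.8 CPM, was in KO isoproterenol. Rps23, whose protein OGFOD1 hydroxylates, averaged 30.4 ± 3.68 CPM in KO isoproterenol, 32.3 ± 3.08 in KO vehicle, 30.3 ± 3.65 in WT isoproterenol and 29.9 ± 3.18 in WT vehicle libraries.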
